A study of Mus musculus with 6 samples.

Results

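The most accessible 1% of the 39768 intervals measured in mouse skeletal muscle chromatin are described here. Counts of fragment ends were converted to RPKM, that is scaled by interval width and by the total of counts in all intervals of that library, and the mean over the 6 libraries was ranked. The highest 1%, 288 intervals of at least 73 bp and 110 narrower ones, are called the members below. The level and the width of an interval therefore chose the members, and values of both are given as a description. Of the members, 79 (19.8%) overlapped another interval, against 19.9% of all intervals, so they are not all separate regions. For example, the 2 members at Srrm2, 516 and 517 bp wide, lie within 517 bp. A fragment end in an overlap may enter the counts of each interval.

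The libraries were made by ATAC-seq from 50000 nuclei each of C57BL/6 mice 7 weeks old, and all mice carried floxed alleles of both genes of the histone variant H2A.Z (H2A.Z-1 flox/flox and H2A.Z-2 flox/flox). The 3 H2A.Z dKO libraries are from mice that also carried HSA CRE, and the 3 CTL libraries are from mice without it, which the labels call WT. HSA is the human skeletal actin promoter, active in post-mitotic muscle fibers, so that nuclei of other cells in the tissue keep both genes. The labels name nuclei of the tibialis anterior muscle, whereas the methods describe muscles of individual hind limbs. Replicates are separate samples by their labels, and these do not say that each is a separate mouse, so p-values measure the spread between these libraries. The libraries hold 3520008 to 6117245 counts in intervals, and the chromatin of fewer nuclei of a type and a lower accessibility per nucleus cannot be told apart in them.

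Tn5, the transposase of ATAC-seq, inserts adapters into DNA that is not wrapped in nucleosomes, and the density of insertions is highest just upstream of active transcription start sites (TSSs), where RNA polymerase and transcription factors keep nucleosomes away. Such promoters often carry a CCAAT box, bound by NF-Y, or a GC box, bound by Sp1 and related factors. H2A.Z marks the nucleosomes on either side of this gap. Tandem telomeric repeats cap the chromosomes and also occur inside them, and the nuclear genome holds copies of stretches of mitochondrial DNA.

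Sequences of 3 of the highest members are shown first, since they differ in kind in ways that the rule did not use. All are the plus strand of mm9, 5′ to 3′, in lower case throughout. Peak_16191, the highest member, is 31 bp of intergenic sequence (chr7:112505177-112505207) and is rich in G. Peak_10509 (chr5:60434070-60434329) is intergenic, and its central 100 bp match the mitochondrial genome from position 5042 to 5141 with 100% identity, across the tRNA genes mt-Ta and mt-Tn. Peak_19336 (chr9:3258793-3258936) lies 165 bp upstream of AC140318.1, which the annotation calls a miRNA gene.
Peak_16191: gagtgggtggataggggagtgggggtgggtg
Peak_10509: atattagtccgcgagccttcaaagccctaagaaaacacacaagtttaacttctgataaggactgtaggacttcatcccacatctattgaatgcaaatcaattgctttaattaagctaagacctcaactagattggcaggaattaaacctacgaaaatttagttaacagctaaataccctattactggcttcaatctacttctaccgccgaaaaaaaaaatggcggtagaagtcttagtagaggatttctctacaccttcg
Peak_19336: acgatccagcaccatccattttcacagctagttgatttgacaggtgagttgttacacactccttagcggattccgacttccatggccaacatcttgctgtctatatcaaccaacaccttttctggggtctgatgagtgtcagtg

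Promoters made up most of the members. The midpoint of 297 members (74.6%) lay within 1 kb of an annotated TSS, against 52.4% of all intervals and 82.2% of the next 1% by rank. Another 41 members lay elsewhere in a gene and 60 between genes. By sequence, 28 members held at least 3 tandem units of the telomeric repeat in their central 100 bp, 1 matched the mitochondrial genome, and 8 others had central 50 bp that occur more than once in the reference. Single-copy members comprised 296 promoters, 26 intervals elsewhere in a gene and 39 intergenic intervals.

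Single-copy promoters were the most numerous members, whereas the share of a kind's intervals that were members was high for telomeric repeats. Of the 134 telomeric intervals, 28 (20.9%) were members, and 1 of the 4 with a mitochondrial match was, against 1.41% of the 567 other repeated intervals, 1.44% of the 20601 single-copy promoters, 0.273% of the 9512 single-copy intervals elsewhere in a gene and 0.436% of the 8950 intergenic ones. Telomeric repeats were 5 of the 10 highest members and 17 of the 50 highest. The placement of reads that match several places is not given in the sources used here. Levels of telomeric repeats and of the mitochondrial match therefore cannot be assigned to these loci alone. Below rank 200 only 3 of 198 were telomeric, and 161 were single-copy promoters. The median GC content of 300-bp windows rose along with this, from 49.2% in the 50 highest to 62.7% below rank 200.

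**Figure D1:**
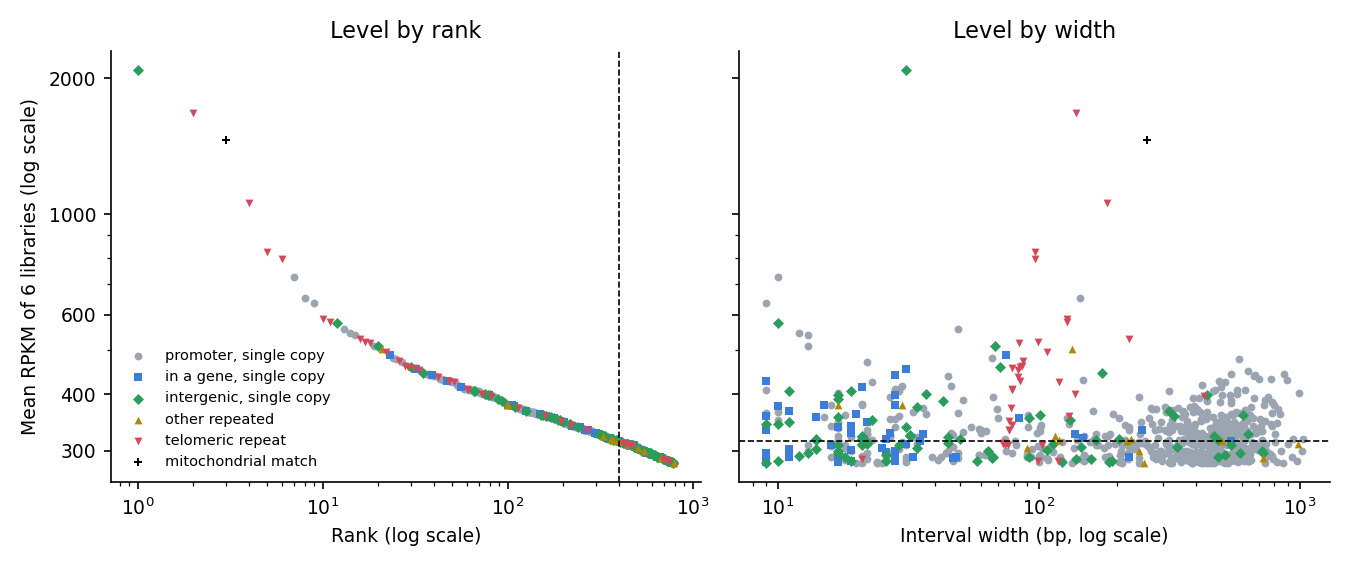
Mean RPKM of the members and of the next 1% of intervals, each point an interval, plotted against rank (left) and interval width (right), with log scales on every axis; colours and symbols give the class of the interval, and dashed lines mark the limit of the members. Telomeric repeats and the mitochondrial match hold 6 of the 10 highest levels, and the single-copy promoter members over 300 bp wide all lie below 500 RPKM.

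The levels of the members ran from 315 to 2081 RPKM with a median of 348, against a median of 116 over all intervals and 295 in the next 1%. The limit falls in a dense part of the ranking. Just inside it was Peak_29285, at the promoter of the kinase gene Grk6, at 314.9 RPKM. Just outside were Peak_20153 near the corepressor gene Sin3a at 314.7 and Peak_7291 at the promoter of Chchd7 at 314.6.

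Width separates the members into narrow and wide ones. Their median width was 314 bp, but 110 were narrower than 73 bp, the length over which the authors' peak calling spread each fragment end, and 204 were wider than 300 bp (51.3%, against 17.8% of all intervals). Of intervals 9 to 36 bp wide 1.62% were members, of those of 150 to 299 bp 0.306%, and of those of 600 bp or more 7.3%. Narrow members rested on a median of 41.9 counts per library and the others on 748. Of the narrow members, 83 (75.5%) lay within 500 bp of an interval of at least 73 bp, against 41.7% of all narrow intervals. Because fragment ends were extended to 37 bp before counting, an end just outside an interval also counts, and dividing by the width alone favours narrow intervals. With 36 bp added to each width, 263 of the members stayed in the highest 1%, and that set held 5 intervals under 73 bp, 23 telomeric ones and 349 promoters. The highest member, Peak_16191, then had 963 RPKM and came after Peak_12372 (1331) and Peak_10509 (1280). Peak_19335 and Peak_16778, 10 and 9 bp wide, were then no longer among the 10 highest.

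Peak_16191 had 1898, 1986 and 3244 RPKM in CTL replicates 1, 2 and 3 and 1626, 2077 and 1657 in the H2A.Z dKO libraries, from 258 to 360 counts. CTL replicate 3 was the highest library, and the groups overlapped. Peak_12372, a telomeric repeat at the end of the assembled chromosome 5, had 1376, 1655 and 2150 RPKM in CTL and 1633, 1673 and 1566 in H2A.Z dKO. Peak_26952, at the end of chromosome 11, had 915, 987 and 1405 RPKM in CTL and 1067, 987 and 981 in H2A.Z dKO. In both, the 3 CTL libraries spanned the H2A.Z dKO libraries. Peak_2466, in an intron of the potassium channel gene Kcnh1, had 647, 773 and 1046 RPKM in CTL and 786, 802 and 735 in H2A.Z dKO, and Peak_12968, in an intron of the phosphodiesterase gene Pde1c, had 661, 822 and 1081 in CTL and 837, 804 and 760 in H2A.Z dKO.

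**Figure D2:**
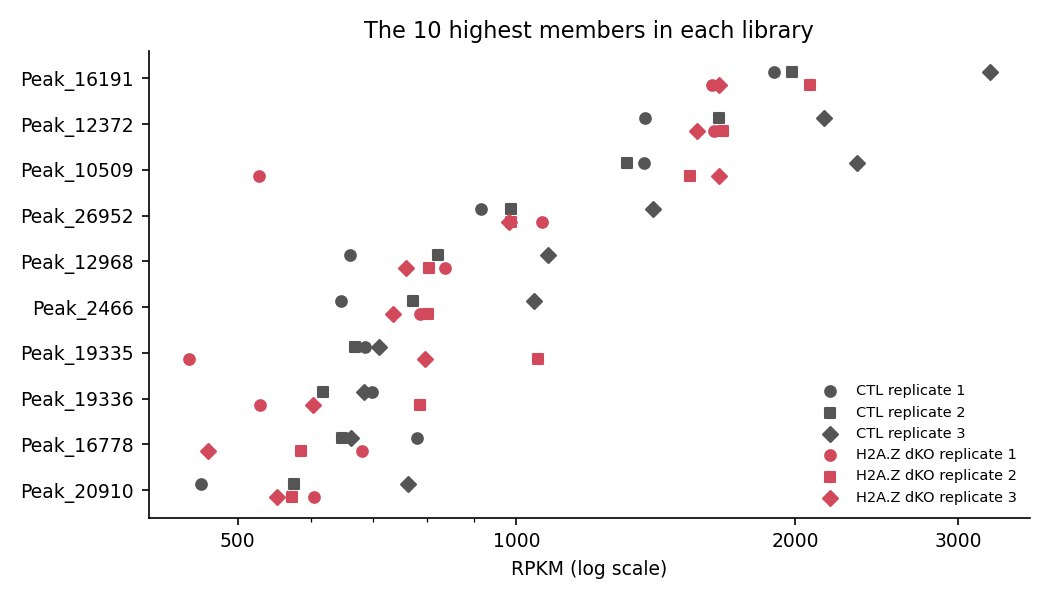
RPKM (log scale) of the 10 highest members in each of the 6 libraries, with CTL in grey and H2A.Z dKO in red and a symbol for each replicate number. CTL replicate 3 is the highest library in the 5 telomeric members and in Peak_10509, where H2A.Z dKO replicate 1 lies far below the others at 528 RPKM.

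The telomeric members moved together between libraries. Of the 28, 26 were highest in CTL replicate 3 and 25 were lowest in CTL replicate 1. They held 0.141%, 0.170% and 0.233% of the counts of CTL replicates 1, 2 and 3 and 0.180%, 0.181% and 0.168% of those of H2A.Z dKO replicates 1, 2 and 3. CTL replicate 1 is the library with the most counts in intervals (6117245) and CTL replicate 3 the one with the fewest (3520008). In counts, the telomeric members had 8615, 7880 and 8205 in CTL and 10546, 8228 and 8437 in H2A.Z dKO, a narrower range than that of the totals. The part of depth in their share was not tested. Their share averaged 0.181% ± 0.0471 over CTL and 0.176% ± 0.00706 over H2A.Z dKO (SD, n = 3 each), and CTL spanned all H2A.Z dKO libraries (exact permutation test, two-sided p = 0.9, where 3 against 3 cannot go below 0.1). Only 2 of the 28 lay within 10 kb of a chromosome end, and the others lay at least 0.821 Mb inside a chromosome, 12 of the 28 within genes. None lay within 1 kb of a TSS.

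The mitochondrial match varied most between libraries of all members. Peak_10509 had 2182, 1586 and 2132 counts in CTL replicates 1, 2 and 3, or 1372, 1318 and 2330 RPKM. In H2A.Z dKO the counts were 806, 1822 and 2161, or 528, 1540 and 1655 RPKM. The highest library was 4.41 times the lowest, and H2A.Z dKO replicate 1 stood below all others. The other 3 intervals of the table that match the mitochondrial genome, which were not members, were also lowest in that library.

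**Figure D3:**
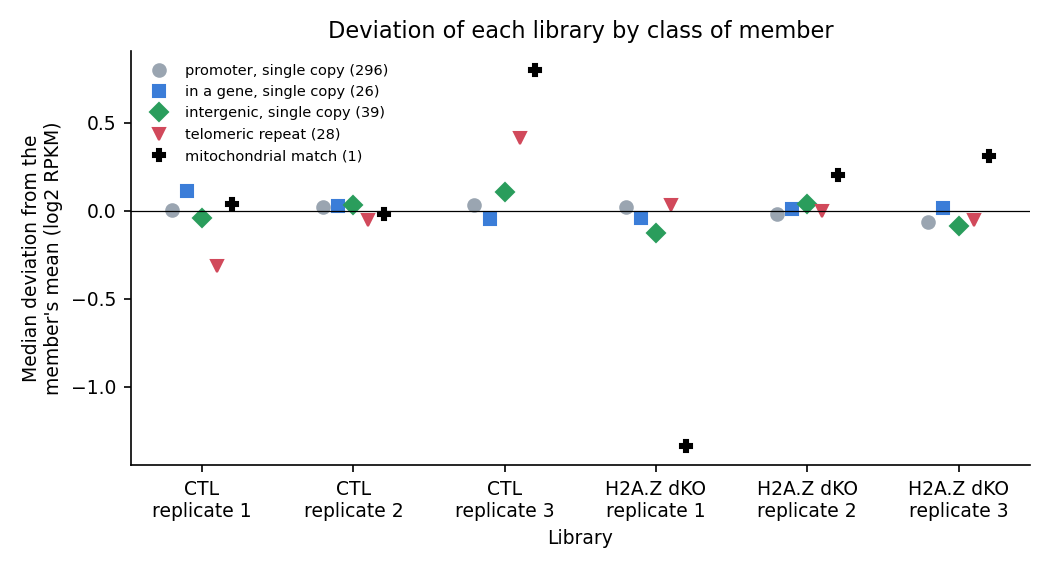
Median deviation of each library from the member's mean over the libraries, in log2 RPKM, for 5 classes of members, with the number of members in brackets. The telomeric members deviate by -0.313 in CTL replicate 1 and 0.417 in CTL replicate 3, the mitochondrial match by -1.339 in H2A.Z dKO replicate 1, and the single-copy promoters by at most 0.066 in size.

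Some members resembled each other. Peak_19336 shared 57 bp with Peak_21301 (chr9:110183745-110183876) at 91.2% identity and 56 bp with Peak_37714, at 92.9%, and the last 2 shared 82 bp at 89.0%. All 3 had central 50 bp found once in the reference. Peak_19336 had 699, 618 and 685 RPKM in CTL and 529, 786 and 603 in H2A.Z dKO, and Peak_21301 had 357, 344 and 413 in CTL and 147, 496 and 350 in H2A.Z dKO. In both, H2A.Z dKO replicate 1 was lowest and H2A.Z dKO replicate 2 highest. Peak_19336 was 1 of 4 members within 664 bp at AC140318.1, which ranked 7, 8, 13 and 15 and were 10, 144, 49 and 13 bp wide.

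One member lies in a target gene. Peak_7050, 13 bp wide (chr3:137528689-137528701), ranked 19 and is in an intron of H2afz, the gene of H2A.Z-1. RPKM was 641, 598 and 240 in CTL but 471, 507 and 613 in H2A.Z dKO, from 11 to 51 counts. The groups overlapped, and CTL replicate 3 was lowest. Its position relative to the deleted part was not examined, so it was not used as a check of the labels.

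Promoter members lay further upstream than promoter intervals in general. Their median position was 105 bp upstream of the nearest TSS, against 81 bp in the next 1% and 19 bp over all 20827 promoter intervals. Upstream lay 76.4% of them, against 59.3% of all and 76.8% of those in the next 1%. Single-copy promoter members had a median width of 406 bp, against 372 bp in the next 1% and 193 bp over all. The part of width in the position of the midpoint was not tested. From 300 to 100 bp upstream lay 39.4% of the promoter members, against 14.7% of all promoter intervals and 29.7% of those in the next 1%. TSSs on both strands within 1 kb were found for 28.6% of the promoter members, against 18.0% of all and 28.1% of those in the next 1%. Protein-coding genes had their TSS within 1 kb of 281.

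**Figure D4:**
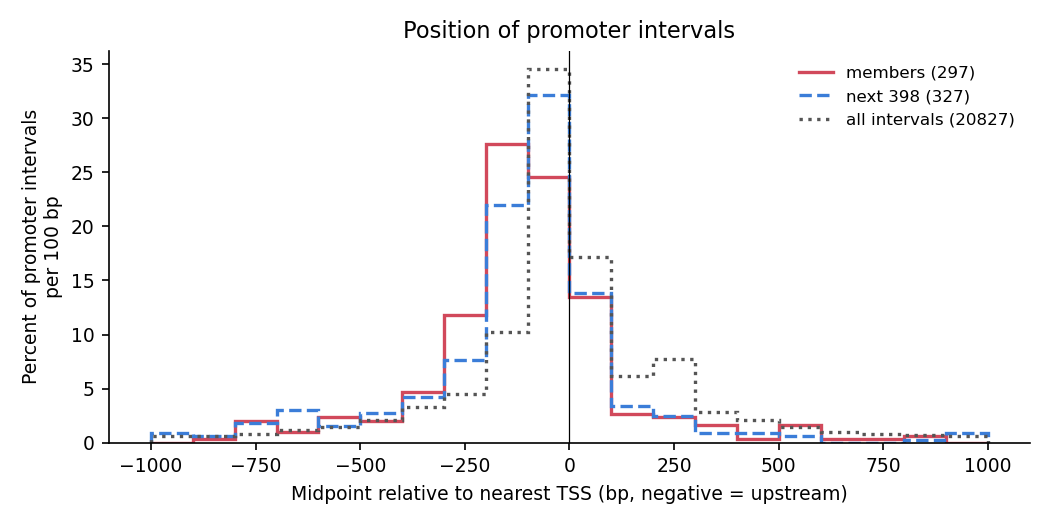
Percent of promoter intervals per 100 bp of distance between the interval's midpoint and the nearest TSS, for the 297 promoter members, the 327 promoter intervals of the next 1% and all 20827. From 200 to 100 bp upstream lie 27.6% of the promoter members, 22.0% of the next 1% and 10.2% of all, whereas from 200 to 300 bp downstream lie 2.36%, 2.45% and 7.75%.

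A CCAAT box was found in more of the promoter members than of promoter intervals in general. The median GC content of single-copy promoter members was 62.3%, against 64.0% for all single-copy promoters, with an observed over expected CpG ratio of 0.782 and 0.791. Motifs were sought on both strands of the 300-bp window around the midpoint, and matches of different motifs may overlap. CCAAT occurred in 61.1% of the 296 single-copy promoter members, in 55.4% of those in the next 1% and in 30.2% of all single-copy promoters. The GC box GGGCGG occurred in 75.3%, 76.2% and 64.9% of these, and the ZNF143 motif in 5.41%, 6.19% and 1.70%. The ETS motif CCGGAAG occurred in 12.8%, 12.1% and 14.6%, the NRF1 motif in 7.09%, 8.98% and 8.65%, and the myogenic E-box CAGCTG in 11.1%, 16.1% and 16.8%, with no test of these differences. A match is a description of the letters in the window.

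Matches in members are shown with 20 bases on each side and the motif in capitals, each from the highest single-copy promoter member of at least 73 bp that holds it outside annotated UTRs. Peak_14775, at the promoter of Cic, a transcriptional repressor gene, holds both CCAAT and the GC box on the minus strand, at chr7:26052998-26053042 and chr7:26053247-26053292. Peak_16731, at the promoter of Tial1, an RNA-binding protein gene, holds the ZNF143 motif at chr7:135605330-135605380.
Peak_14775, CCAAT box: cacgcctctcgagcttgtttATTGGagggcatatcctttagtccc
Peak_14775, GC box: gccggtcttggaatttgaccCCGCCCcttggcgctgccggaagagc
Peak_16731, ZNF143: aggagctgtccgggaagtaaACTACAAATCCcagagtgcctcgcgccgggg

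Members within 1 kb of a TSS were counted at the genes of several lists. Chaperone genes had members at 5 of the 60 of them that have an interval within 1 kb, Dnajb5, Dnajc18, Hspa14, Hspa2 and Hspa8. Translation factor genes had 4 of 60 (Eif4a1, Eif4g2, Eif5 and Eif5b), splicing genes 3 of 41 (Hnrnpa0, Hnrnph1 and Hnrnpk) and mitochondrial ribosomal protein genes 3 of 72. Proteasome genes had 1 of 46 (Psme2), and the Zfp zinc finger genes 3 of 265. Of 191 small RNA genes with an interval within 1 kb, 8 had a member. The respiratory chain genes, with 78 genes that have an interval, and the replication-dependent histone genes, with 34, had no member. Of the intervals within 1 kb, members were 4.0% for chaperone, 2.84% for translation factor and 2.83% for splicing genes. The share was 1.99% for mitochondrial ribosomal protein, 0.99% for proteasome, 0.586% for Zfp and 3.0% for small RNA genes. It was 0 of 167 for respiratory chain and 0 of 36 for histone genes, against 1.44% of all single-copy promoters, with no test. The highest member of the chaperone list, Peak_27696 at Hspa2, had 792 to 1213 counts and a mean of 366 RPKM.

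Some genes were near several members. Among the immediate early genes, which respond to stimuli within minutes, 2 of the 17 with an interval within 1 kb, Dusp1 and Egr1, had members there. Members were 3 of the 42 intervals on this list (7.14%) and 2 of the 44 on the circadian list (4.55%), against 1.44% of all single-copy promoters, with no test. Of the 16 circadian genes with an interval, 1 had a member within 1 kb. This gene, Per1, a repressor of the clock, was the nearest gene of 4 members within 5046 bp (chr11:68908386-68913431). The widest of these, Peak_24833, lay 114 bp upstream of a TSS and had 1015, 706 and 574 counts in CTL and 923, 723 and 833 in H2A.Z dKO. Nr1d1, another clock repressor, was nearest to 3 members, none of them within 1 kb of its TSS. Peak_25947, 1225 bp downstream of its TSS, was the highest of these with 489 RPKM, from 194, 173 and 148 counts in CTL and 236, 156 and 173 in H2A.Z dKO. Another 5 members lay within 3595 bp at Plekhg2 and Zfp36, the latter a gene for an RNA decay factor, while 3 lay at Brd2, a bromodomain protein gene. The members at Plekhg2 and Zfp36 were 12 to 102 bp wide and those at Brd2 16 to 131 bp. Widths were 31 to 440 bp at Per1 and 11 to 75 bp at Nr1d1. Division by width favours narrow intervals, and its part in these groups of members was not tested.

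No marker of a cell type had a promoter among the members. Of the 16 muscle fiber markers 12 had an interval within 1 kb, and the highest of their 26 intervals ranked 999 with 271 RPKM. A muscle gene did have a member further inside, Peak_17051, 19 bp wide in an intron of Tnnt3, the fast troponin T gene, 1173 bp from its TSS, with 25 to 44 counts. Of the other lists 6 of 8 endothelial, 4 of 7 fibroblast, 3 of 6 smooth muscle and pericyte, 1 of 5 satellite cell and 0 of 7 macrophage markers had an interval, with no level above 179 RPKM. The endothelial, fibroblast, smooth muscle and pericyte, and satellite cell lists hold 9, 6, 3 and 2 intervals. Of all single-copy promoters 1.44% were members, so lists this short can hold none, and nothing about cell types follows.

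Single-copy members away from promoters were mostly narrow, with a median width of 28 bp over 65. The widest were Peak_15627 (631 bp, 16843 bp upstream of Chd2, a chromatin remodeller gene) and Peak_1102 (606 bp, 32033 bp upstream of Hdac4, a class IIa histone deacetylase gene that muscle induces on denervation). Peak_1102 had 1290, 1036 and 920 counts in CTL and 1166, 972 and 1005 in H2A.Z dKO, and the log2 fold change was -0.18 (standard error 0.10, 95% confidence interval -0.39 to 0.02). The GC box was found in 33.8% of these 65, in 24.2% of such intervals in the next 1% and in 16.1% of all single-copy intervals away from promoters. The CTCF motif was found in 10.8%, 9.68% and 8.23% of these, and CAGCTG in 23.1%, 17.7% and 31.1%, and the differences were not tested.

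The high level was found again in libraries that did not choose the members. When the highest 1% was chosen on 5 libraries, 260 to 291 of them were in the highest 1% of the library left out, except for H2A.Z dKO replicate 1 with 179 (45.0%). In each of the 6 libraries left out, at least 376 (94.5%) were in the highest 10%. Chosen on the CTL libraries alone, 293 (73.6%) were in the highest 1% of H2A.Z dKO and 99.7% in the highest 10%. In the highest 1% of each of the 6 libraries were 74 of the 288 members of at least 73 bp and 21 of the 110 narrower ones. The median ratio of the highest to the lowest library was 1.27 in the wider members and 1.68 in the narrow ones, and it exceeded 2 in 29 members, 21 of them under 73 bp. In members of at least 73 bp, the SD of the log2 deviation from the member's mean was 0.27 in H2A.Z dKO replicate 1 and 0.08 to 0.16 in the other libraries.

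The comparison of H2A.Z dKO with CTL asks whether loss of H2A.Z alters the most accessible chromatin. The rule averaged over both groups and did not use this contrast. In edgeR (quasi-likelihood test, p adjusted over all 39768 intervals by Benjamini-Hochberg), 0 members and 0% of all intervals passed an adjusted p of 0.05, and DESeq2 and limma voom also called 0 members. At an unadjusted p under 0.05 there were 11 members (2.76%), against 4.95% of all intervals, and all 11 were lower in H2A.Z dKO, where 2.31% of all intervals were lower and 2.64% higher at this level. DESeq2 gave 5 members at this level (1.26%, against 1.90% of all intervals) and limma voom 19 (4.77%, against 5.02%). The number and its direction depend on single libraries. Without CTL replicate 3 there were 3 higher and 2 lower members (1.26%, against 3.18% of all intervals), and without H2A.Z dKO replicate 3 there were 7 higher and 8 lower (3.77%, against 5.60%). Without H2A.Z dKO replicate 2 the numbers were 6 and 24 (7.54%, against 5.38%), without H2A.Z dKO replicate 1 they were 1 and 36 (9.30%, against 7.95%), and without CTL replicate 2 they were 1 and 6 (1.76%, against 4.21%). The share of all intervals at this level thus also moved with the library left out.

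Fold changes of the members were small. The log2 fold change ran from -0.62 to 0.45 with a median of -0.039, against 0.012 over all intervals and -0.038 in the next 1%. The median was -0.081 without H2A.Z dKO replicate 1, -0.018 without CTL replicate 3 and -0.024 without H2A.Z dKO replicate 3. The log2 fold change was below 0 in 246 members (61.8%), against 47.5% of all intervals and 61.1% of the next 1%. With loess offsets, which remove trends with level, the median was -0.012 for the members and 0.010 over all intervals. A change of more than 2-fold either way was outside the 95% confidence interval of 392 members (98.5%, against 91.4% of all intervals) and one of more than 1.5-fold outside that of 309 (77.6%, against 49.6%). RPKM of the groups did not overlap in 45 members (11.3%, against 10.6% of all intervals), 40 of them lower in H2A.Z dKO (5.30% of all intervals) and 5 higher (5.26%). In the next 1% these numbers were 39 and 10.

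**Figure D5:**
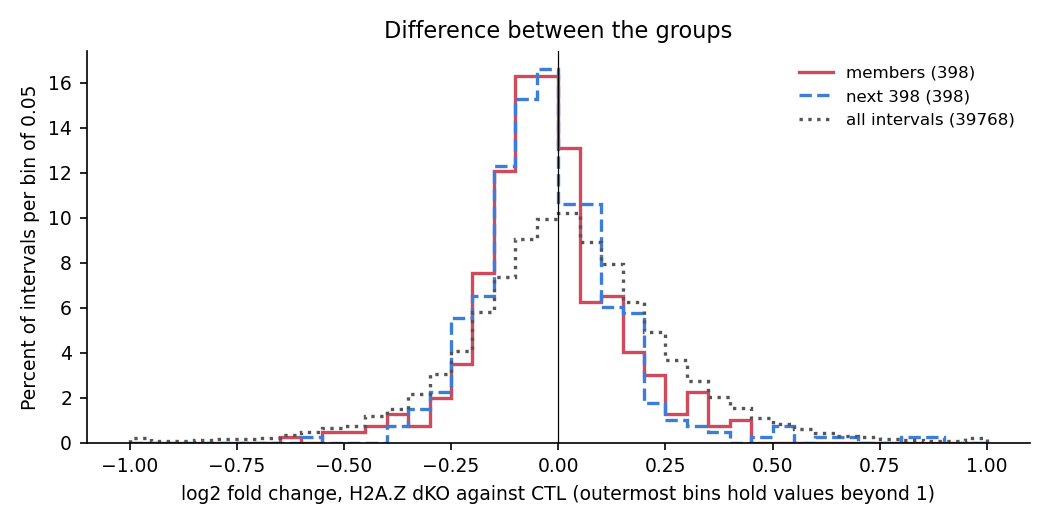
Distribution of the log2 fold change of H2A.Z dKO against CTL in bins of 0.05, for the members, the next 1% by rank and all 39768 intervals. The members and the next 1% lie close together with medians of -0.039 and -0.038, and both are narrower than all intervals.

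The member with the smallest p was Peak_15699 (chr7:86417764-86418236), 87 bp upstream of Abhd2, a serine hydrolase gene. It had 342, 349 and 375 RPKM in CTL and 233, 300 and 297 in H2A.Z dKO, so that every H2A.Z dKO library lay below every CTL library. The log2 fold change was -0.37 (standard error 0.10, edgeR adjusted p = 0.972). Peak_35993 at Khsrp, an RNA-binding protein gene, and Peak_24579 between Lrrc48 and Tom1l2 followed with log2 fold changes of -0.25 (standard error 0.09) and -0.26 (standard error 0.10), both with an edgeR adjusted p of 0.972. The smallest p values among members with a positive log2 fold change belonged to Peak_9421 upstream of the pseudogene B330016D10Rik (0.44, 95% confidence interval -0.00 to 0.87), Peak_5146 in the coding sequence of Cebpb, a transcription factor gene (0.45, -0.05 to 0.95), and Peak_16767 in an intron of Tacc2 (0.41, -0.07 to 0.89). All 3 are under 73 bp wide and held 27 to 128 counts per library. Without H2A.Z dKO replicate 1 the log2 fold change was 0.20 for Peak_9421 and 0.23 for Peak_5146, and that of Peak_16767 was 0.20 without CTL replicate 2 and 0.70 without CTL replicate 1. Peak_9421 had 288, 258 and 296 RPKM in CTL and 474, 339 and 316 in H2A.Z dKO, and Peak_5146 had 319, 288 and 365 in CTL and 535, 419 and 351 in H2A.Z dKO.

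The members held 4.37%, 4.48% and 4.69% of the counts of CTL replicates 1, 2 and 3 and 4.44%, 4.40% and 4.23% of those of H2A.Z dKO replicates 1, 2 and 3. The means were 4.51% ± 0.162 (SD, n = 3) and 4.36% ± 0.115 (SD, n = 3), a difference of -0.155 percentage points for H2A.Z dKO minus CTL that lay within the spread (exact permutation test, two-sided p = 0.3, adjusted p = 0.675 over 9 shares tested). The difference was -0.0674 without CTL replicate 3 and -0.0898 without H2A.Z dKO replicate 3. Single-copy promoter members held 4.02% ± 0.0881 in CTL and 3.89% ± 0.119 in H2A.Z dKO (SD, n = 3 each, exact permutation test, two-sided p = 0.2, adjusted p = 0.675).

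The authors' column that lists each interval for both groups or for 1 of them names 291 members (73.1%) for both, against 38.7% of all intervals and 72.4% of the next 1%, 70 for CTL only and 37 for H2A.Z dKO only. The members listed for 1 group were narrow, with median widths of 28.5 and 27 bp, against 423 bp for those listed for both. Among the members the median log2 fold change was 0.013 in those listed for CTL only and 0.009 in those listed for H2A.Z dKO only. Over all intervals listed in this way it was -0.128 and 0.110.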

How the data were processed

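ATAC-seq of 3 CTL and 3 H2A.Z dKO libraries was analysed. The authors used Trimmomatic for adapters, Bowtie for the alignment to mm9 and Picard against duplicates, moved ends to the centre of the Tn5 event, called peaks with MACS2, removed mitochondrial and blacklisted peaks, merged the peaks of both groups and deposited counts of ends, extended to 37 bp, per interval and library, without normalization. How reads matching several places were placed is not given in the sources used here. The deposited DESeq2 columns (log2 fold change, standard error, Wald score, p-values) and a mean of scaled counts were not used. A header name is missing, and 0 columns of other samples were found.

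The groups were compared on counts in edgeR 4.0.16 (TMM factors 0.971 to 1.02, robust quasi-likelihood test, no filter), with DESeq2 1.42.0, limma 3.58.1 voom, RLE, totals, loess offsets, a filter of 20 counts, a replicate block and each library left out as alternatives. Annotation is GENCODE vM1 on mm9 (promoter: midpoint within 1 kb of a TSS). Mitochondrial matches had at least 90% identity over at least 80 bp in blastn 2.17.0. Errors hold the spread of these libraries only. The fits were tested on simulated data.

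Named are the 10 highest members, the highest of each place and list, the 3 lowest p among positive and among negative fold changes, the narrowest (Peak_16778, 9 bp) and the widest (Peak_7417, 1028 bp, at Ripk2), and those at the limit. The others (Peak_1102, Peak_7050, Peak_15627, Peak_17051, Peak_21301, Peak_25947, Peak_37714 and clusters of members) were chosen after their values were seen, as were the sequence classes and the limit of 73 bp for members whose motif matches are shown. The share of soft-masked bases was not computed, as the genome used is not masked. Members and lists were chosen with earlier results of these data known. Some named items, sequences and 1 gene list are not reported here. RNA-seq and ChIP-seq were not analysed here.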

Additional observations from a re-analysis of the deposited data

How the results depend on the processing

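The number of members past an adjusted p of 0.05 was 0 under all 13 alternatives of the fit, and the median log2 fold change of the members stayed below 0 in all of them (-0.081 to -0.018 with a library left out, -0.012 with loess offsets). The number at an unadjusted p under 0.05, 11 in edgeR, was 5 in DESeq2, 19 in limma voom, 6 with loess offsets and 5 to 37 with a library left out, where 4.95% of all intervals in edgeR and 1.90%, 5.02%, 5.11% and 3.18% to 7.95% under these alternatives were at this level. Replicate numbers did not pair the libraries (correlations of same-numbered deviations -0.0977, -0.053 and -0.0323). With the replicate block the number was 8 and the median -0.040. Of the members, 263 stayed with 36 bp added to the width and 141 without division by width, at least 344 under the other rankings of all intervals, 288 among intervals of at least 73 bp and 352 to 386 with a library left out. The percentage at promoters, 74.6, was 68.1 with a window of 500 bp, 67.8 in the top 0.5% and 83.7 among intervals of at least 73 bp, and the median GC content, 59.7%, was 60.0 in 100-bp windows, 61.4 in the interval itself, 57.0 in the top 0.5%, 61.2 in the top 2% and 61.7 in intervals of at least 73 bp. The difference in share of counts was -0.139 percentage points without telomeric and mitochondrial members, an alternative chosen after seeing the data, and -0.228 to -0.0674 with a library left out. The log2 fold change of Peak_20910 was 0.02 in limma voom. With a library left out, values crossed 0 in Peak_12372 (-0.23 to 0.10), Peak_26952 (-0.24 to 0.09), Peak_12968 (-0.24 to 0.12), Peak_2466 (-0.22 to 0.13) and Peak_20910 (-0.21 to 0.16) without CTL replicate 3, in Peak_19336 (-0.23 to 0.03) without H2A.Z dKO replicate 1 and in Peak_19335 (-0.16 to 0.40) without H2A.Z dKO replicate 2, and the cause was not tested. Narrow members rest on few counts.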
